A study of Mus musculus with 20 samples.

Results

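The 39 genes described here encode complement proteins and the factors that form or dissolve blood clots. They were chosen by gene symbol, 19 from complement and 20 from coagulation and its control, and all 39 were found in both RNA-seq tables, which list 56884 genes in males and 18149 in females. RNA-seq was performed on livers of 12 mice aged 11 to 14 weeks, 3 WT and 3 Midn-T of each sex. In Midn-T mice, Albumin-Cre, which acts in hepatocytes, had inverted a gene-trap cassette in intron 2 of Midn so that the transcript ends after exon 2. Mice titled WT carry the genotype label Midn XTR and those titled Midn-T the label Midn TR, and whether the WT mice carried Cre is not given in the sources used here. The deposited tables give 1 mean normalized count per gene and sex, averaged by the authors over all 6 livers of that sex, so WT and Midn-T are pooled in every value below and their comparison was not analysed here. These means carry no value for a single mouse. The differences between the sexes are therefore descriptions without a test, and whether the sexes were prepared in the same batch is not given in the sources used here.

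Complement is a chain of plasma proteins that are cut one after the other on the surface of microbes or damaged cells. Antibody or surface sugars start it, C3 is the point on which the starting routes meet, and the terminal proteins assemble into a pore in the target membrane. Coagulation is a second chain of plasma proteases, which ends when thrombin cuts fibrinogen into fibrin, while plasmin dissolves the clot and several inhibitors limit both steps. Hepatocytes make most of the proteins of both chains and secrete them into blood.

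To compare genes, each mean was divided by the combined length of the exons of the gene and scaled so that all genes of a table sum to 1000000; this value is called the length-scaled level. To compare the sexes, the log2 ratio of the female to the male mean was shifted so that its median was 0 over the 16283 genes with means of at least 10 in both tables, a shift of 0.051. A gene was counted as different when the ratio passed 1.5-fold. The 2 tables were normalized separately by the authors, so a ratio between the sexes rests on this common scale. The summed means were 3.03e+07 in males and 3.08e+07 in females, and the depth of each library is unknown. The livers carried hepatocyte RNA in both sexes: the length-scaled levels of the 8 hepatocyte markers summed to 78070 in males and 88444 in females, with 8 of 8 within 1.5-fold. The 10 markers of Kupffer cells and leukocytes summed to 473.8 and 493.2, the 8 endothelial markers to 303.2 and 351.4, the 8 stellate markers to 157.0 and 200.1 and the 6 markers of blood cells to 312.8 and 409.1. None of the Kupffer, endothelial or stellate markers passed 1.5-fold, and 1 of 5 blood cell markers with a ratio did. Log2 ratios were above 0 for 8 of 8 stellate markers (median 0.31) and 7 of 8 endothelial markers (median 0.19). They were above 0 for 7 of 10 Kupffer and leukocyte markers (median 0.031) and 3 of 8 hepatocyte markers (median -0.11). Of 5 cholangiocyte markers, which summed to 44.7 and 50.2, Krt19 and Krt7 were higher in females. Both had low means, 19.7 in males and 38.1 in females for Krt19 and 22.1 and 34.3 for Krt7, which only just passed. The other cholangiocyte markers were within 1.5-fold, and Sox9 alone had a log2 ratio below 0, of -0.28. In bulk liver, fewer cells of a type and less RNA per cell cannot be told apart.

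Most of the 39 genes were among the most abundant transcripts of the liver. Their length-scaled levels made up 4.04% of the total in males and 4.41% in females. The median level was 539.0 in males and 474.3 in females. Of 18045 genes listed in both tables and ranked by level, 17 of the 39 were in the top 1% in males and 16 in females, and 35 of the 39 were in the top 5% in each sex. The 4 outside it were Masp1, Pros1, C2 and Cfb in both sexes. Of these, C2 ranked 3431 in males and 4785 in females, and Cfb ranked 6769 and 7291. With canonical lengths 14 genes in males and 13 in females were in the top 1% and 33 in each sex in the top 5%. Masp1 then lay inside the top 5%, while F11 and Klkb1 lay outside it in both sexes, F7 in males and C8b in females.

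**Figure D1:**
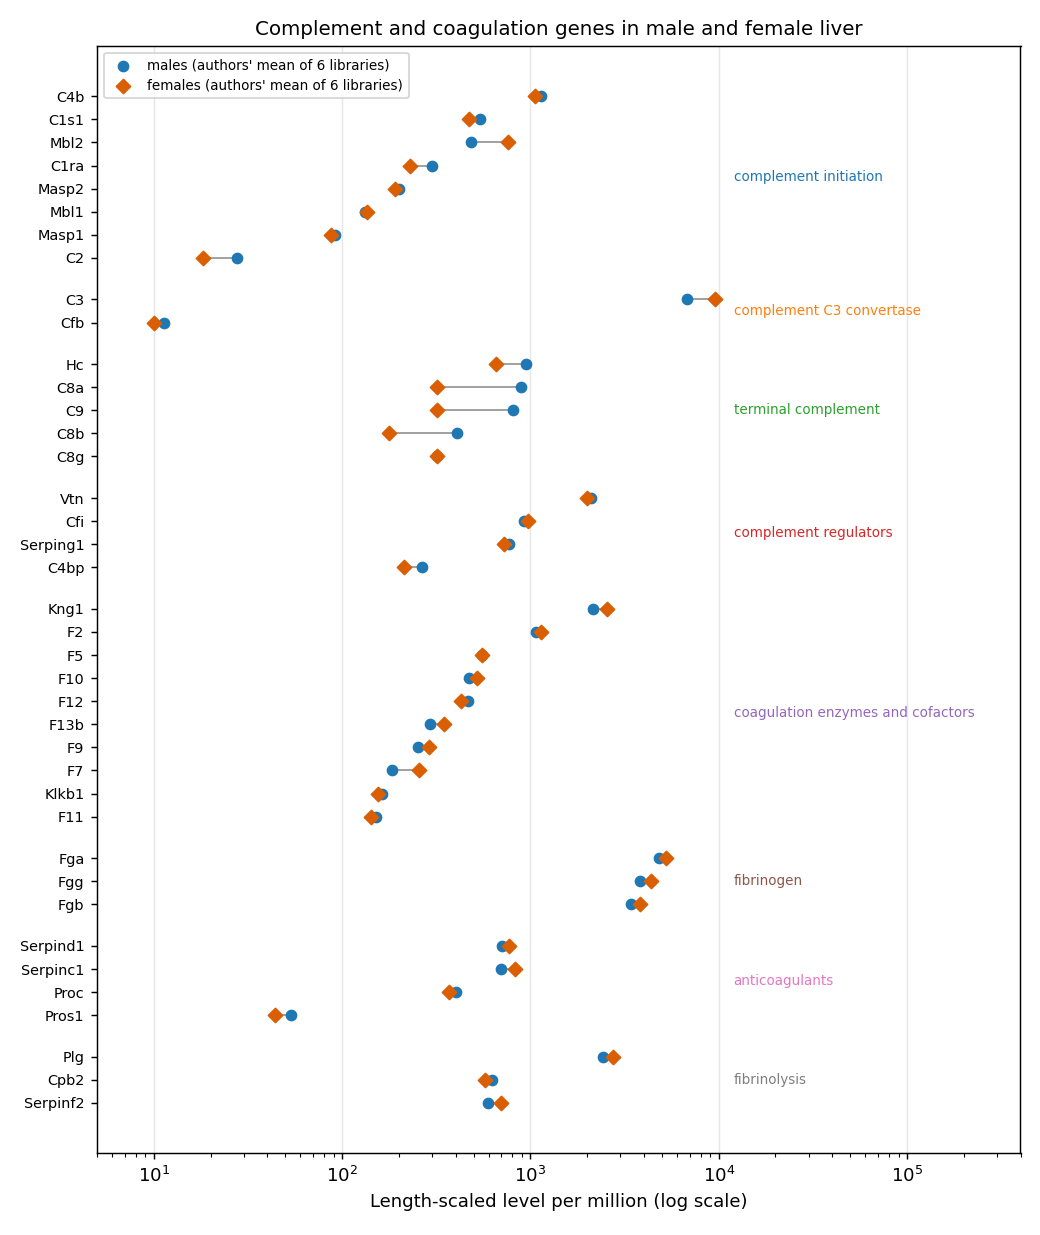
Length-scaled level, of which all genes sum to 1000000 (horizontal log axis), of the 39 genes in males (circles) and females (diamonds), grouped by role, each point the authors' mean of 6 livers with both genotypes. C3 lies farthest right at 6753 and 9570, and the widest gaps between the sexes are those of C8a, C9 and C8b.

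Between the sexes, 4 of the 39 genes were higher in males by over 1.5-fold, beside 4.31% of all 16283 genes, and 1 of the 39 was higher in females, beside 7.31% of all genes. The 4 were C8a, C9, C8b and C2, and the 1 was Mbl2. The other 34 were within 1.5-fold. Of the genes just outside the limit, Hc had a log2 ratio of -0.55 and C3 one of 0.48. The spread of the ratio over genes was narrower at high means, with an SD of 0.33 beside 0.51 over all genes. Among the 4153 genes with means of at least 1000 in both sexes, 2.99% were higher in males and 2.41% in females, and among the 37 of the 39 genes with such means the numbers were 3 and 1. The median log2 ratio was 0 over all genes by construction and -0.065 over the 4153 genes with means of at least 1000. Over all 39 genes the median log2 ratio was -0.098, with 22 below 0 and 17 above. This median rests on the common scale: it was -0.047 without it and -0.019 when the tables were scaled to equal sums without the 10 largest genes, with 20 below 0 and 19 above in both.

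**Figure D2:**
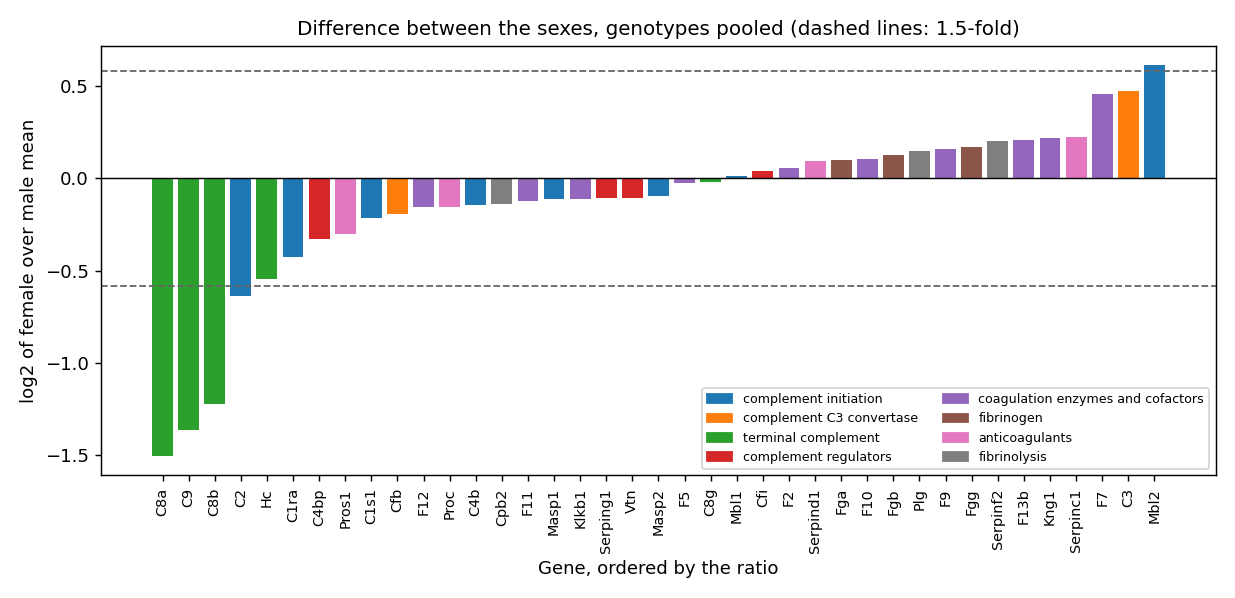
Log2 of the female over the male mean (vertical axis) for each of the 39 genes in order of the ratio, coloured by role, with dashed lines at 1.5-fold and both genotypes pooled. C8a, C9, C8b and C2 lie below the lower line, Mbl2 alone lies above the upper line, and 34 bars end between them.

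Terminal complement showed the widest differences between the sexes. This group holds Hc, which encodes C5, whose cleavage starts pore assembly, the 3 chains of C8 and C9, which polymerizes into the pore. The median log2 ratio was -1.23, 3 of the 5 genes passed 1.5-fold toward males, and all 5 ratios were below 0, although that of C8g turned to 0.034 without the common scale. The summed length-scaled level of the 5 genes was 3362 in males and 1792 in females. The other 34 genes had a median log2 ratio of -0.0050, which turned to 0.046 without the common scale, while that of terminal complement was then -1.17.

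C8a, the alpha chain of C8, had a mean normalized count of 29294 in males and 10686 in females. It was 2.84-fold higher in males (log2 ratio -1.51). C9 had means of 17888 and 7184 and was 2.58-fold higher in males (log2 ratio -1.37). Its rank among all genes was 138 in males and 337 in females. C8b, the beta chain of C8, had means of 10966 and 4858, a 2.34-fold difference in the same direction (log2 ratio -1.23). These 3 genes were the only ones of the 39 past 2-fold, a limit that 1.5% of all genes passed toward males and 1.99% toward females.

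C8g, the third chain of C8 and a member of the lipocalin family, had close means of 4657 and 4767 (log2 ratio -0.017). The chains are joined in equal numbers in the C8 protein. In length-scaled level, C8a was 2.81 times C8g in males and 1.00 times in females, and C8b was 1.28 times C8g in males and 0.554 times in females. C8a was 2.19 times C8b in males and 1.81 times in females. The exons of C8g add up to 1.64 times its canonical transcript, and with canonical lengths C8a was 1.98 times C8g in males and 0.706 times in females, while C8b was below C8g in both sexes, at 0.881 and 0.381 times. The order of C8b and C8g in males and of C8a and C8g in females thus depends on the length used. C8a stayed above C8b with canonical lengths, at 2.25 times in males and 1.85 times in females. The ratio of a gene between the sexes does not depend on the length. Hc had means of 47493 and 33645, 1.46-fold higher in males and short of the limit. In length-scaled level Hc was 1.17 times C9 in males and 2.07 times in females, and 0.999 and 1.76 times with canonical lengths.

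C8a and C8b lie end to end on chromosome 4 of GRCm39, C8b from 104623328 to 104662573 on the forward strand in 12 exons and C8a from 104672876 to 104733614 on the reverse strand in 11 exons, with 10302 bp between their 3' ends. C9, with 11 exons, lies on chromosome 15 from 6474795 to 6547009, and C8g, with 7 exons, on chromosome 2 from 25388657 to 25391771. No stretch of 100 bases in the canonical transcripts of C8a, C8b, C8g or C9 was found in the transcripts of a gene elsewhere. The sequences before the start sites of the 3 genes that differ most between the sexes are given 5' to 3'. Positions count back from the start of the Ensembl canonical transcript, bases that lie in an annotated exon were left out, and capitals mark exact matches on either strand to GTTAAT (an arm of the HNF1 site), TTGCNNAA (C/EBP), TTCNNNGAA (STAT), TGTTTGC and TGTTTAC (FOXA) and CAAAGTCCA and CAAAGGTCA (HNF4), where N is any base.
C8a (GRCm39 chr4:104733615-104733864, strand -, positions -250 to -1): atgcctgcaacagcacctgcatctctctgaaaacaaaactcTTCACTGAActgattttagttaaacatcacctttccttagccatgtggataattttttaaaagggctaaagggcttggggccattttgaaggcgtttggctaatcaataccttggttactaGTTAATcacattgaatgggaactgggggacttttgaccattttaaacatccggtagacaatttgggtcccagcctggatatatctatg
C8b (GRCm39 chr4:104623256-104623327, strand +, positions -250 to -179): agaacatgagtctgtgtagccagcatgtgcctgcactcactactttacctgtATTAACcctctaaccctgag
C9 (GRCm39 chr15:6474558-6474794, strand +, positions -250 to -14): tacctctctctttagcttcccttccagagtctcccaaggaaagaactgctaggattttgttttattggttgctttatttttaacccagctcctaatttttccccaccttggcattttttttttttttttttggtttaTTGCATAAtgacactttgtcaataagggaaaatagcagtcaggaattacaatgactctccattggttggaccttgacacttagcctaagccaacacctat

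The C8a sequence held 1 match to the STAT letters at positions -209 to -201 and 1 HNF1 arm at -88 to -83. The stretch of C8b held 1 HNF1 arm at -198 to -193, and in the part left out, TGTTTGC stood at -24 to -18 and again at -7 to -1. C9 held 1 C/EBP match at -113 to -106. A match is a description of the letters and says nothing of binding in these livers. None of the motifs marked was found before all 3.

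**Figure D3:**
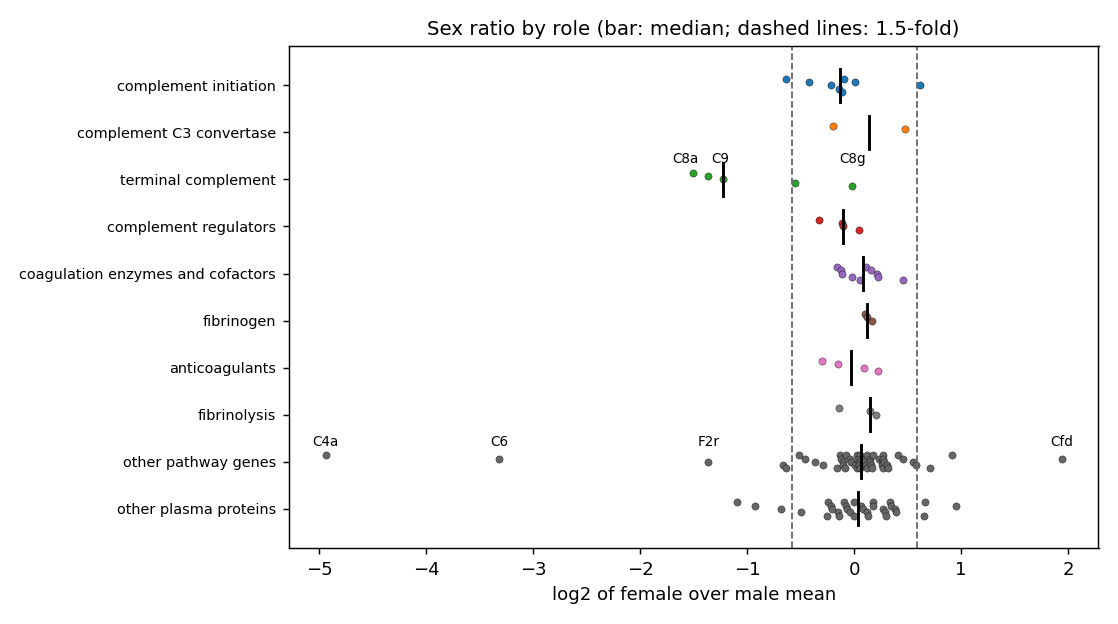
Log2 of the female over the male mean (horizontal axis) of every gene with a ratio, 1 point per gene, by role for the 39 genes and below them for 52 other pathway genes and 32 other plasma proteins, with a black bar at each median and dashed lines at 1.5-fold. The median of terminal complement lies at -1.23, and those of the other 7 roles lie between -0.13 and 0.15, where that of the anticoagulants, at -0.029, turns to 0.021 without the common scale.

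The genes that start complement differed less between the sexes, apart from C2 and Mbl2. Mbl2 encodes a mannose-binding lectin, which recognizes sugars on microbes. Its means were 7315 in males and 11590 in females, 1.53-fold higher in females (log2 ratio 0.61). Mbl1, the gene of the other such lectin, had means of 4287 and 4477 (log2 ratio 0.012). Mbl2 was 3.67 times Mbl1 in length-scaled level in males and 5.57 times in females, but 1.76 and 2.67 times with canonical lengths, since the exons of Mbl1 add up to 2.64 times its canonical transcript. Masp1 and Masp2 encode the proteases that travel with these lectins. Their log2 ratios were -0.11 and -0.098, and Masp2 stood at a length-scaled level of 199.6 in males and 190.2 in females, beside 92.1 and 86.8 for Masp1. This gap rests on the length: the exons of Masp1 add up to 13632 bases against 5345 in its canonical transcript, and with canonical lengths the levels in males were 147.6 for Masp2 and 145.2 for Masp1, a ratio of 1.02.

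C1ra and C1s1 encode the proteases of the C1 complex, which antibody activates. C1ra had means of 7430 and 5734 (log2 ratio -0.42) and C1s1 of 14519 and 12983 (log2 ratio -0.21). They are neighbours on chromosome 6, 6894 bp apart. Of the 100-base stretches of the C1ra transcript, 36.0% also occur in C1rb or the locus Gm18840, and 7.99% of those of C1s1 occur in C1s2. Reads that map more than once were left out by the authors, so the count of C1ra is uncertain. C1rb and C1s2 had means of 1.99 and 0.445 in males and are not listed in females. Neither can be set against C1ra or C1s1 between the sexes.

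C4b encodes C4, which is cut by C1s1 and by Masp2. It had means of 53740 in males and 50409 in females (log2 ratio -0.14) and ranked 97 and 104 among all genes. C2 encodes the protease that joins C4 in the C3 convertase. Its means of 931 and 620.3 gave a 1.55-fold difference toward males (log2 ratio -0.64), the smallest of the 4 past the limit toward males. C3, on which the routes meet, had the highest level of the 39, with means of 271635 and 391176. It was 1.39-fold higher in females (log2 ratio 0.48) and ranked 18 in males and 10 in females. Cfb, the protease of the alternative convertase, had the lowest level, with means of 299.4 and 271.1 (log2 ratio -0.19).

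The low values of C2 and Cfb share a feature of the annotation. A locus named Gm20547 runs through both on the same strand and covers 38.4% of the exon bases of C2 and 65.7% of those of Cfb. In the default mode of HTSeq a read on exons of 2 genes is assigned to neither, and the mode used is not given in the sources used here. Gm20547 had a mean of 0 in males and is not listed in females. The part of this overlap in the levels of C2 and Cfb was not tested. Among the other 37 genes only Klkb1 overlapped another gene on its strand, Gm45753, over 43.2% of its exon bases.

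The 4 complement regulators were within 1.5-fold. Vtn, vitronectin, which binds the terminal complex before it inserts, had means of 51570 and 49719 (log2 ratio -0.10) and ranked 63 in each sex. Cfi, the protease that cuts C3b and C4b, had means of 17350 and 18497 (log2 ratio 0.042). Serping1, the C1 inhibitor, had 18110 and 17397 (log2 ratio -0.11). C4bp, a cofactor of Cfi, had 15155 and 12486 (log2 ratio -0.33). The summed length-scaled level of the regulators was 4054 in males and 3900 in females.

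Fibrinogen was the most abundant group. The protein holds equal numbers of 3 chains, encoded by Fga, Fgb and Fgg side by side on chromosome 3. Fga had means of 119355 in males and 132617 in females. Fgb had 101762 and 114943, and Fgg had 71439 and 83349. Their log2 ratios lay between 0.10 and 0.17. Per length the order was Fga, Fgg and Fgb in both sexes, with levels of 4795, 3797 and 3431 in males and 5244, 4360 and 3814 in females. The highest chain was 1.40 times the lowest in males and 1.38 times in females, and 1.73 and 1.70 times with canonical lengths. Together they took 1.20% of the summed level in males and 1.34% in females.

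Fgg lies from 82915030 to 82922363 in 9 exons, Fga from 82933383 to 82940934 in 6 and Fgb from 82947448 to 82957170 in 8, with 11019 bp between Fgg and Fga and 6513 bp between Fga and Fgb, which runs on the opposite strand. The bases before their start sites, with matches in capitals as above, are given because these 3 genes are the most abundant neighbours among the 39.
Fga (GRCm39 chr3:82933272-82933382, strand +, positions -250 to -140): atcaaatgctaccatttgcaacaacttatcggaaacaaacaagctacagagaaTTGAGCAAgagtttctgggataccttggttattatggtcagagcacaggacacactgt
Fgb (GRCm39 chr3:82957171-82957420, strand -, positions -250 to -1): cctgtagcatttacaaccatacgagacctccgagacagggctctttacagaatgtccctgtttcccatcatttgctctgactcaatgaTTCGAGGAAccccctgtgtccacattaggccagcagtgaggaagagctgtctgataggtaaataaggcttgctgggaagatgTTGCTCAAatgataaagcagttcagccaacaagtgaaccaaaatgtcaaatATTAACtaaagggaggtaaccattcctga
Fgg (GRCm39 chr3:82914781-82915029, strand +, positions -250 to -2): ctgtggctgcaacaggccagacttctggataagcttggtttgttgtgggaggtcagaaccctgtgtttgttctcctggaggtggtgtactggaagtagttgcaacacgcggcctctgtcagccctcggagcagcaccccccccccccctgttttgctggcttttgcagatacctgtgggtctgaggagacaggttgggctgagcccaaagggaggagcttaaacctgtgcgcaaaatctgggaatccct

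The sequence of Fgb held a STAT match at -162 to -154, a C/EBP match at -80 to -73 and an HNF1 arm at -29 to -24. That of Fga held a C/EBP match at -197 to -190, and its HNF1 arm at -105 to -100 lies in the part left out. In Fgg no motif marked here was matched. Over the 250 bases before the start of each of the 39 genes, 23.1% held the HNF1 arm and 25.6% the C/EBP letters, beside 5% and 8.44% of 13621 protein-coding genes listed in both tables. The longer HNF1 core stood before C4bp, F13b, Hc and Plg, 10.3% of the 39 beside 0.374% of all, and each of these matches contains an HNF1 arm. The STAT letters stood before C8a, F9, Fgb and Masp2, 10.3% beside 6.72%. Stricter forms of 3 sites were also searched, and each stood before 0 of the 39 genes. A narrow STAT form stood before 1.12% of all, a C/EBP palindrome before 0.191% and the full HNF1 site before 0.0073%. Forms this rare are too few for their absence from 39 genes to be read further. A GC box, GGGCGG, stood before F5 alone, 2.56% of the 39 beside 47.3% of all. TATAAA stood before Hc, Klkb1 and Vtn, 7.69% beside 7.77%, and CCAAT before 12 genes, 30.8% beside 36.1%. The HNF4 letters CAAAGGTCA stood before F7 alone, 2.56% beside 0.316%, and CAAAGTCCA before none, beside 0.411%. The FOXA letters TGTTTGC stood before C1s1, C8b and Plg, 7.69% beside 3.78%, and TGTTTAC before none, beside 2.37%.

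The 10 coagulation enzymes and cofactors were within 1.5-fold, with a median log2 ratio of 0.083. Kng1, kininogen, the cofactor of the contact system, was the highest, with means of 54753 and 66018 (log2 ratio 0.22). Of its 100-base stretches 5.56% also occur in Kng2. F2, prothrombin, had means of 39993 and 43157 (log2 ratio 0.059). F5, the cofactor of its activation, had 35481 and 36193, with a log2 ratio of -0.022 that turned to 0.029 without the common scale. F10, which with F5 activates prothrombin, had 10100 and 11269 (log2 ratio 0.11). F9, on the X chromosome and the factor lacking in hemophilia B, had 5379 and 6226 (log2 ratio 0.16). F7, which starts the chain with tissue factor, had 2685 and 3825 and was 1.38-fold higher in females (log2 ratio 0.46).

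F7 and F10 follow each other on chromosome 8 with 1483 bp between them, and in length-scaled level F10 was 2.59 times F7 in males and 2.03 times in females. F11 and Klkb1, the paralogous proteases of the contact system, lie 4548 bp apart on the same chromosome. F11 had means of 3383 and 3223 (log2 ratio -0.12), and Klkb1, plasma prekallikrein, had 6676 and 6407 (log2 ratio -0.11). F12, which starts the contact system, had 8964 and 8332 (log2 ratio -0.16). F13b, the carrier chain of the factor that cross-links fibrin, had 5855 and 7020 (log2 ratio 0.21). The levels of F7, Klkb1 and F11 were the lowest of the group, between 152.0 and 183.0 in males.

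The anticoagulants spanned a wide range of levels. Serpinc1, antithrombin, had means of 46336 and 56011 (log2 ratio 0.22). Serpind1, heparin cofactor II, had 13984 and 15471 (log2 ratio 0.095). Proc, protein C, which cuts F5, had 9602 and 8937 (log2 ratio -0.15). Pros1, the cofactor of Proc, had 2619 and 2203 (log2 ratio -0.30). In length-scaled level Proc was 7.52 times Pros1 in males and 8.32 times in females, and Serpinc1 was 0.650 times F2 in males and 0.728 times in females. With canonical lengths these ratios were 8.15 and 9.02 for Proc and 0.469 and 0.525 for Serpinc1.

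Of the genes of fibrinolysis, Plg, plasminogen, had means of 70567 and 81190 (log2 ratio 0.15) and ranked 57 and 47. Serpinf2, which inhibits plasmin, had 18162 and 21635 (log2 ratio 0.20). Cpb2, a carboxypeptidase that slows clot lysis, had 8295 and 7810 (log2 ratio -0.14). Plg was 4.11 times Serpinf2 in length-scaled level in males and 3.97 times in females, and 3.29 and 3.18 times with canonical lengths. Over the 20 genes of coagulation and its control 0 passed 1.5-fold, and over the 19 complement genes 4 did toward males and 1 toward females. Among all genes 4.31% passed it toward males and 7.31% toward females, and 2.99% and 2.41% among those with means of at least 1000. In coagulation 13 log2 ratios were above 0 and 7 below, with a range from -0.30 to 0.46. In complement 15 ratios were below 0 and 4 above. C8g and F5 moved above 0 without the common scale, which gave 14 above and 6 below in coagulation and 5 above and 14 below in complement.

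**Figure D4:**
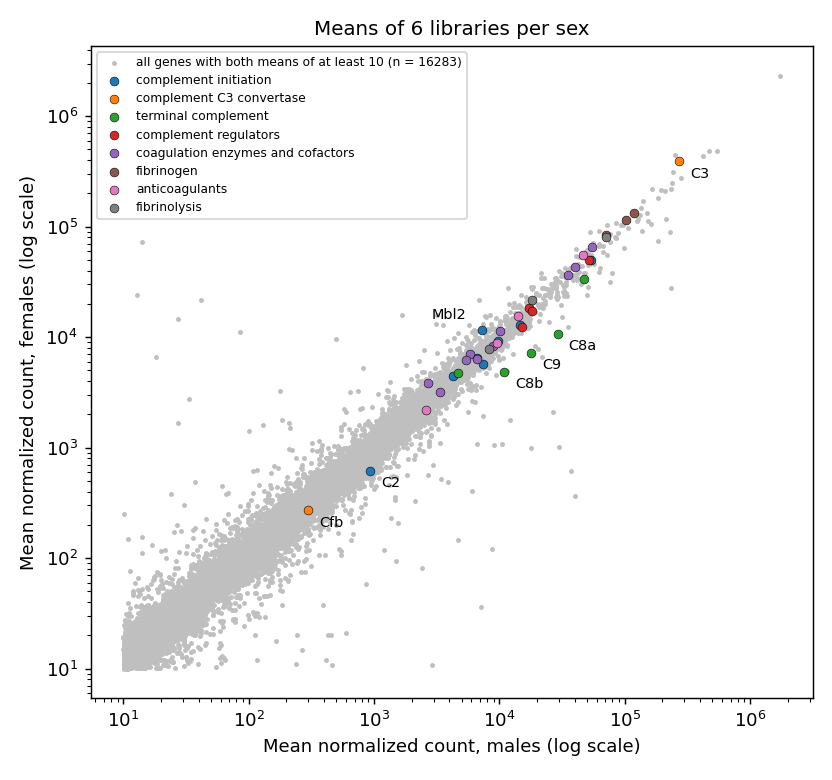
Mean normalized count in females (vertical) against males (horizontal), both on log axes, for all 16283 genes with means of at least 10 (grey) and the 39 genes (coloured by role). C8a, C9 and C8b lie below the diagonal band, and C2 and Cfb at 931 and 299.4 in males are the lowest of the 39.

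A list of 62 other genes of the 2 pathways was set beside the 39. Of these, 7 are not listed in females, and of the 52 with a ratio 5 were higher in males and 3 in females by over 1.5-fold. These counts were 9.62% and 5.77% of the 52, beside 4.31% and 7.31% of all 16283 genes. C6, a terminal component that binds C5b and is not among the 39, had means of 10444 in males and 1086 in females, a 9.96-fold difference (log2 ratio -3.32). C7, the next component, had 71.8 and 52.1 (log2 ratio -0.51). C4a, the paralog of C4b that encodes the sex-limited protein, had 2424 and 81.7, 30.7-fold higher in males (log2 ratio -4.94). C4b shares 16.3% of its 100-base stretches with C4a, so a part of the reads of each may not have been counted. How many reads this concerns was not tested. F2r, a thrombin receptor, had 1361 and 548.1 (log2 ratio -1.36), and Mug1, a murinoglobulin, had a log2 ratio of -0.66.

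Those higher in females were of low mean. Cfd, factor D, had 12.05 in males and 47.9 in females, Cr2 had 17.9 and 35 and Cd46 had 74.0 and 125.2. Among the chains of C1q, which Kupffer cells make, C1qa had 822.8 and 870.9, C1qb 916.9 and 883.9 and C1qc 880.7 and 859.5, with log2 ratios from -0.10 to 0.031. The highest length-scaled levels of the list were those of Pzp, Mug1, Hrg, Mug2 and Clu in males, between 735.4 and 4046. Kng2 and C1rl, paralogs of members, had log2 ratios of 0.46 and 0.030.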

How the data were processed

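RNA was extracted from liver and depleted of ribosomal RNA, and reads were placed on GRCm39 with STAR 2.7 by the authors. Those mapping to 1 place were counted per Ensembl gene with HTSeq, reading the reverse strand, and the authors then compared genotypes by sex with DESeq2. The signal the authors deposited for each gene is the mean over 6 libraries of counts divided by size factors. The deposited fold changes, standard errors, Wald statistics and p-values of Midn-T against WT, and the ATAC-seq lists of peak positions and directions, are the authors' own comparison and were not used. No column of the deposited tables belongs to a single library, so depth and spread between mice are unknown. The female table lists fewer genes than the male table, with no mean below 6.61.

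Tables were joined by Ensembl identifier. Exon lengths, positions and canonical transcripts came from GENCODE M39 on GRCm39, which holds 18045 of the 18149 genes in both tables; the Ensembl release the authors counted on is another one. Ratios were shifted to a median of 0 over genes with both means of at least 10. Promoters were the 250 bases before each canonical start in GRCm39, and shared stretches were exact runs of 100 bases in transcripts of other, non-overlapping genes. The 39 members and the lists were chosen with earlier results of these data known. Named were all members, and of other lists the paralogs, the 5 highest and those past 1.5-fold, with C7 and the C1q chains chosen after their values were seen. A gene counted among the other pathway genes is not reported here. The calculation was tested on simulated data. Analyses used Python 3.11.15, numpy 2.4.6, pandas 2.3.3 and matplotlib 3.10.9.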

Additional observations from a re-analysis of the deposited data

How the results depend on the processing

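The 5 genes past 1.5-fold stayed 5 with no scaling of the 2 tables, with sum scaling, with no filter, with means of at least 100, among protein-coding genes and with a pseudocount of 1. With no scaling C2 only just passed, at a log2 ratio of -0.586 where the limit is 0.585. Sum scaling without the 10 largest genes gave 4, with 3 higher in males, since C2 fell within the limit. At a fold of 2 the number was 3, with 3 higher in males and 0 in females, beside 1.5% and 1.99% of all genes. At the lowest fold tried, below 1.5, the number was 10 of the 39, with 7 higher in males and 3 in females. Of all genes, 12.7% were higher in males and 18.4% in females at this lowest fold. C8g and F5, near a ratio of 1, changed sign with no scaling, to log2 ratios of 0.034 and 0.029, and under sum scaling, to 0.0098 and 0.0046. The median level in males was 539.0, and 456.9 with the longest transcript, 461.9 without length and 396.6 with the canonical transcript, the last chosen after seeing the data. For 12 of the 39 genes the exons together exceed the canonical transcript by over 1.5 times in length, so the order of neighbouring levels depends on this choice. Of the 39 log2 ratios the median, -0.098, was -0.071 with sum scaling. No paired analysis was possible because the deposited tables hold no value of a single library, and for the same reason no library could be left out. Depth per library is unknown, and a difference between the sexes here could not be set against the spread between mice.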

Other observations

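Other plasma proteins made by hepatocytes, a list of 32 genes, were set beside the complement and coagulation genes. Of these, 3 were higher in males and 3 in females by over 1.5-fold, 9.38% in each direction, beside 4.31% and 7.31% of all genes. Their median log2 ratio was 0.034. Hp, haptoglobin, which binds free hemoglobin, had means of 79226 in males and 38367 in females (log2 ratio -1.10). Serpina3k had 213317 and 116241 (log2 ratio -0.93), and Hpx, hemopexin, which binds free heme, had 99672 and 64367 (log2 ratio -0.68). Serpina6, the corticosteroid-binding globulin, had 7721 and 15513 (log2 ratio 0.96). Pon1 and Afm, the latter of the albumin family, had log2 ratios of 0.66 and 0.65. The 3 male-biased genes of terminal complement therefore had larger differences than any of these 32 in the male direction, as values without a test. The highest levels of the list were those of Alb, Apoa1, Trf, Apoe and Hpx in males.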
